A study of Mus musculus with 2 samples.

Results

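Transcript signals of 9 macrophage and complement genes (C1qa, C1qb, C1qc, Cd68, Adgre1, Lyz1, Lyz2, Csf1r and Mrc1) were compared between pancreatic islets of PERK wild-type and PERK knockout mice. These genes were chosen by name, with earlier results of these data known. On the array, 15 of the 22690 probe sets carry their symbols, for 9 of 12393 named genes. A probe set is a group of short oligonucleotides that reads 1 transcript. The wild-type group was 1 array of islets from mice 2 days after birth, labelled as mixed in strain and mixed in sex. The knockout group was 1 array of islets from PERK knockout mice of the same age, with strain, sex, the way the allele was made and any pooling of pups not given in the sources used here. PERK, encoded by Eif2ak3, is the kinase of the endoplasmic reticulum that slows translation when unfolded protein accumulates. In both groups islets were freed with collagenase P, and biotin-labelled cRNA was hybridised to Affymetrix mouse 430A arrays.

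Macrophages are resident phagocytes of most tissues, the islet included, where they sit beside blood vessels and endocrine cells. They depend on signals through the receptor CSF1R, take up dying cells and debris, and digest them in lysosomes. They are also a main source of C1q, a secreted complex of A, B and C chains that binds immune complexes and dying cells and starts the classical complement pathway. Lysozyme, by contrast, is made by macrophages, monocytes and neutrophils alike, so it marks myeloid cells in general.

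Each value below is 1 array's deposited signal in arbitrary units, and each ratio is log2 of knockout over wild type. Without replicates there is no spread between animals, no p-value was computed, and the number of arrays limits the precision. The available error is the disagreement between probe sets of the same gene, an SD of 0.26 on the log2 scale over 2597 genes, called the probe set SD. It leaves out animals, litters and RNA preparations. A floor was set at 39.8, the 40th percentile of the pooled signals, and lower signals were raised to it. A gene is called measured when both arrays exceeded the floor, which held for 8133 genes, and their median log2 ratio was 0.03. A gene above the floor on only 1 array has a bound. The brightest probe set represents each gene. The targeted gene, Eif2ak3, read 117.7 in the wild-type library and 58.7 in the knockout library on its brightest probe set (2.01-fold lower), with 2 dimmer probe sets under the floor in both. The deleted exons were not given in the sources used here, so this reading checks the labels only in part. The 9 islet endocrine markers on the array were all measured, with a median log2 ratio of -0.13, and so were all 13 markers of the surrounding acinar tissue. Pcsk1, the prohormone convertase, was the 1 endocrine marker at least 2-fold apart (919.8 and 332.6, -1.47). Of all measured genes, 0.652% were at least 2-fold lower. At least 1.5-fold lower signals were found for 2 of the 9 endocrine markers, against 2.95% of all measured genes. The brightest were Ppy at 0.23 and Chga at -0.17. Signal at the 3' end relative to the 5' end, which grows as cRNA gets shorter, was 1.61 (wild type) and 2.01 (knockout) for beta-actin but 1.01 and 0.867 for Gapdh. The part of cRNA length in the results was not tested.

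C1q chains, lysozyme probe sets and the markers Cd68 and Adgre1 had higher signals in the knockout library, while Csf1r and Mrc1 were about level. Of the 9 genes, 8 were measured and C1qc had a bound. Among the 8 measured genes, 7 had a log2 ratio above 0, against 54.9% of all measured genes, and 1 was below. Their median log2 ratio was 0.70 (1.63-fold), and 0.72 with C1qc at its bound. At least 2-fold higher signals were found for 1 of the 8, Lyz1, against 0.516% of all measured genes, and 0 were at least 2-fold lower, against 0.652%. The Lyz1 call rests on 1 probe set of the _x_at type, while the other measured Lyz1 probe set gave 0.32. It was lost with the median over probe sets (0.80) and without the _x_at and _s_at types. Over probe sets, 10 of 13 measured ones had a ratio above 0, against 55.2% of all measured probe sets. At a limit of 1.5-fold, chosen after the values were seen, 5 of the 8 were higher (C1qa, C1qb, Adgre1, Lyz1 and Lyz2), against 4.19% of all measured genes, and 0 were lower, against 2.95%. At that limit 6 of the 13 measured probe sets were higher, against 4.21%. The genes were chosen with earlier results of these data known, so their counts beside these shares are a description only. These counts take Lyz1 and Lyz2 as 2 genes, though the Lyz1 signal cannot be told apart from that of Lyz2 here. The summed signal of the 9 genes came to 1145 for wild type and 1890 for knockout, a ratio of 1.65. That sum likewise adds Lyz1 (151.5 and 366.0) and Lyz2 (167.5 and 304.2) as 2 separate signals. In whole islets, a different number of macrophages and a different amount of RNA per macrophage cannot be told apart. Nor can macrophages of the islets and those of attached acinar tissue. The summed signal of acinar markers was 44487 in wild type and 46673 in knockout, against 45007 and 43626 for islet endocrine markers.

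**Figure D1:**
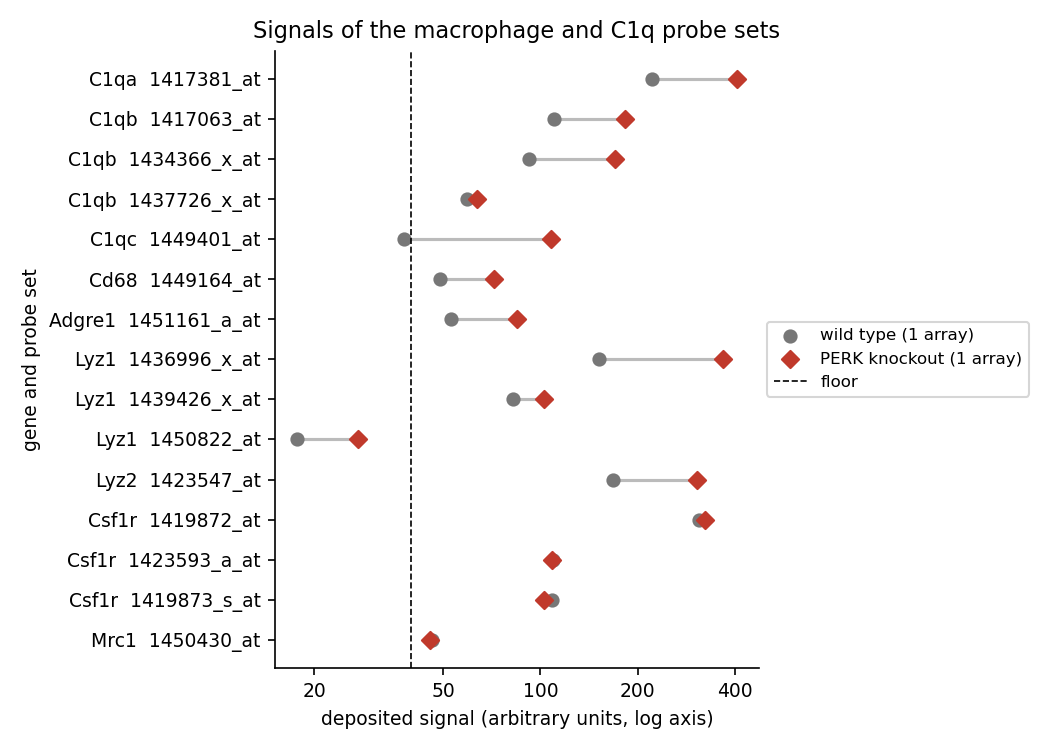
Deposited signal (arbitrary units, log axis) of each of the 15 probe sets of the 9 genes, with a grey circle for the wild-type array, a red diamond for the knockout array and a dashed line at the floor of 39.8. The C1qa, C1qc and Lyz2 probe sets and the brighter ones of C1qb and Lyz1 lie further right in the knockout, and the 3 Csf1r probe sets and that of Mrc1 overlap.

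The 3 chains of C1q all gave higher signals in the knockout library. C1qa, the A chain, read 220.7 in wild type and 404.5 in knockout islets, a log2 ratio of 0.87 (1.83-fold), which is 3.40 times the probe set SD. Among the 8133 measured genes, 84 (1.03%) had a ratio at least as high, C1qa included. C1qc, the C chain, read 37.8 in the wild type, just under the floor, and 107.4 in the knockout. It was therefore at least 2.70-fold higher. Of the 8826 genes measured or with a bound, 0.6% were at least 2-fold higher, and of the 693 genes with a bound, 61.2% were above the floor in the knockout only.

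C1qb, the B chain, was read by 3 probe sets. The brightest read 110.4 and 181.9, a log2 ratio of 0.72 (1.65-fold). The second read 92.1 and 169.6, a log2 ratio of 0.88. The dimmest read 59.4 and 63.7, a log2 ratio of 0.10, which is under the probe set SD. The brighter pair thus differed by less than the probe set SD from each other and from C1qa, and the dimmest one did not share their ratio. The second and the dimmest are of the _x_at type, which share probes with other sequences. Summed over the brightest probe set of each chain, C1q read 368.9 in wild type and 693.8 in knockout islets, a ratio of 1.88.

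The C1q genes lie side by side on chromosome 4 of the mouse, in the order C1qb, C1qc, C1qa with no annotated gene between them in the RefSeq annotation of GRCm38.p6. The 250 bases before the annotated start are shown for C1qb (chr4:136886201-136886450, minus strand) and C1qc (chr4:136892915-136893164, minus strand), since both chains were higher. They were taken from the RefSeq promoter table of GRCm38.p6, which matched 6 of the 9 genes. Capitals mark GAGGAA on either strand, the core bound by the myeloid factor PU.1.
C1qb: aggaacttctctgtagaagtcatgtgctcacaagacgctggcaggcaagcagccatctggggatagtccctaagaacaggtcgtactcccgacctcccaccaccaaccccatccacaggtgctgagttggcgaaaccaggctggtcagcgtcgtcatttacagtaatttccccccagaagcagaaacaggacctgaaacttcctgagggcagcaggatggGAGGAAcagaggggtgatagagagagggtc
C1qc: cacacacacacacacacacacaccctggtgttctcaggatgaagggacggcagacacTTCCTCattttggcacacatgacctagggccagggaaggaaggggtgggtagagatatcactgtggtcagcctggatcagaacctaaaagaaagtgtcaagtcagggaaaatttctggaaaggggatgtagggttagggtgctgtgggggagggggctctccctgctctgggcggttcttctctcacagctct
C1qb holds 1 match, whose first base is at -30 relative to the start. C1qc holds 1 match on the opposite strand, at -193. Such a match is common, since 23.3% of the 32851 RefSeq promoter windows of this length hold one, and it is a description of the letters, not a binding site. Neither window holds a match to the AP-1 motif TGANTCA, the MAF half-site TGCTGAC or the E-box CACGTG, searched on both strands and found in 6.75%, 3.81% and 6.02% of windows. Aligned end to end, the C1qb and C1qc windows were identical at 46.6% of aligned columns, against 45.6% to 50.7% for the other pairs among the 6 windows, Lyz1 with Lyz2 left out.

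**Figure D2:**
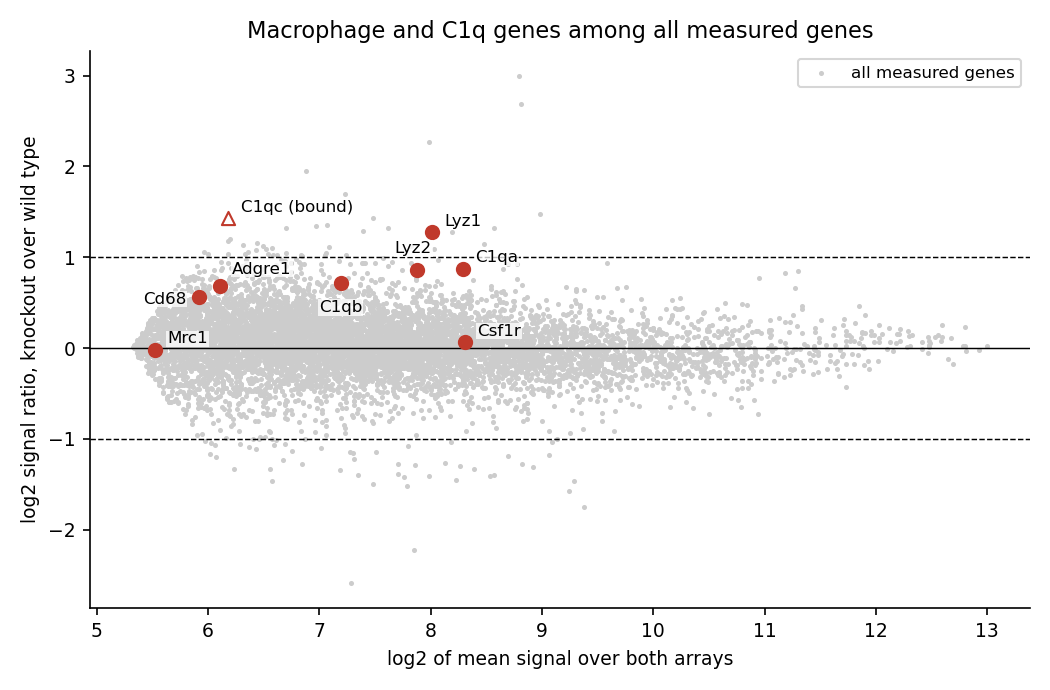
Log2 signal ratio of knockout over wild type against log2 of the mean signal over both arrays, 1 grey point for each of the 8133 measured genes and red points for the genes under study, with the C1qc bound as an open triangle and dashed lines at 2-fold. Lyz1 lies above the upper dashed line at 1.27, C1qa and Lyz2 lie just below it, and Csf1r and Mrc1 lie near 0.

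Probe sets named for both lysozyme genes gave higher signals in the knockout library. Lysozyme is the secreted and lysosomal enzyme that cleaves bacterial cell walls. In the mouse Lyz2 is the copy of myeloid cells, and Lyz1 is the copy of Paneth cells in the gut. Lyz2 has a single probe set, which read 167.5 in wild type and 304.2 in knockout islets, a log2 ratio of 0.86 (1.82-fold). That is 0.01 below the ratio of C1qa.

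Lyz1 was read by 3 probe sets that differed from one another. The brightest read 151.5 and 366.0, a log2 ratio of 1.27 (2.42-fold). The second read 82.1 and 102.6, a log2 ratio of 0.32 (1.25-fold). The dimmest read 17.7 and 27.2, under the floor on both arrays, so it has no ratio. The first and second are of the _x_at type. The only Lyz1 probe set without shared probes by its type was therefore not above the floor, and signal of Lyz1 cannot be told apart from that of Lyz2 here.

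Lyz1 and Lyz2 are neighbours on chromosome 10, and the likeness of the copies extends upstream of the genes. Their 250 bases before the start are shown for Lyz2 (chr10:117282273-117282522, minus strand) and Lyz1 (chr10:117292869-117293118, minus strand), from the same table. Capitals mark the longest run shared by both.
Lyz2: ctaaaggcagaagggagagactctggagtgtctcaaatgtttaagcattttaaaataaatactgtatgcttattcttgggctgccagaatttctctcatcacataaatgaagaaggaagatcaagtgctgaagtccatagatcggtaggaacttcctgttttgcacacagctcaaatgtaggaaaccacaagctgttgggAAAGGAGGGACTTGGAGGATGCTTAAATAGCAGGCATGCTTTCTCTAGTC
Lyz1: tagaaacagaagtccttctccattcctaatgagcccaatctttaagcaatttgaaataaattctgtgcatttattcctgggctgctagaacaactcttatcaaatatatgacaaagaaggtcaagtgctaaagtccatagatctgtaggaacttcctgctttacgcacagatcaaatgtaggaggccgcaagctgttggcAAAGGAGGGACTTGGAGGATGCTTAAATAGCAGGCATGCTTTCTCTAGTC
The shared run fills the last 50 bases before the start site. Over the whole window 205 bases were identical, 78.8% of aligned columns. Neither window holds a match to any of the 4 motifs.

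Cd68 and Adgre1, markers of macrophages themselves, lay close to the floor and were also higher in the knockout library. Cd68, a heavily glycosylated protein of macrophage lysosomes, read 48.8 in wild type and 71.9 in knockout islets, a log2 ratio of 0.56 (1.47-fold). Adgre1, the surface receptor known as F4/80, read 52.9 and 84.9, a log2 ratio of 0.68 (1.60-fold). These ratios were below that of C1qa by 0.87 and 0.53 times the probe set SD of a difference. Both genes have a single probe set and lie in the dimmest of 4 equal brightness classes of measured genes. In that class 6.74% of the 2033 genes had a ratio at least as high as Cd68, and 3.89% as high as Adgre1. The Cd68 promoter window holds 1 match to GAGGAA and 2 to the AP-1 motif, and that of Adgre1 was not used here.

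Csf1r and Mrc1 were about level between the libraries. Csf1r, the receptor tyrosine kinase for the growth factors CSF1 and IL-34, was read by 3 probe sets. The brightest read 308.9 in wild type and 323.7 in knockout islets, a log2 ratio of 0.07. The second read 109.5 and 108.6, a log2 ratio of -0.01. The dimmest read 108.4 and 102.2, a log2 ratio of -0.09. All 3 lay within the probe set SD of 0, and 2 of them were below it. The difference between the log2 ratios of C1qa and Csf1r was 0.81, which is 2.22 times the probe set SD of a difference, and that between C1qb and Csf1r was 0.65 (1.80 times).

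Mrc1, the mannose receptor of tissue-resident macrophages and of some endothelial cells, read 46.2 and 45.6 on its only probe set, a log2 ratio of -0.02. Its signal was close to the floor on both arrays. The promoter window of Mrc1 (chr2:14229164-14229413, plus strand) is shown with GAGGAA on either strand in capitals, as that of a level gene beside the C1q windows.
Mrc1: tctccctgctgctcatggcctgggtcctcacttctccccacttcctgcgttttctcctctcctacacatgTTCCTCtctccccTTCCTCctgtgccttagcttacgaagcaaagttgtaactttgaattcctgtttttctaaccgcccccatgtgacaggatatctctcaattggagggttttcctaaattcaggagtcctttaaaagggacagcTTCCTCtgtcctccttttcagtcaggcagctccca
It holds 3 matches, more than the window of any of the other 5 genes in the table.

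Among classical pathway genes on the array, 3 of 4 were measured, with a median log2 ratio of 0.36. All 3 were above 0, against 54.9% of all measured genes. None was 2-fold apart and 1 was at least 1.5-fold higher, against 4.19% of all measured genes. C1ra, the first protease activated by C1q, read 52.6 and 85.3 (1.62-fold). C1s1, the protease it activates in turn, read 108.5 and 116.8 (1.08-fold), and Serping1, the C1 inhibitor, 301.6 and 387.3 (1.28-fold). The lectin, alternative and terminal pathways and their regulators had 7 measured genes of 21 on the array, with a median of 0.07 and none at 2-fold. Their brightest were Clu (clusterin), with a log2 ratio of 0.02, and Cr1l, a membrane regulator of C3, with 0.07. A further 11 were at the floor on both arrays.

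Receptors and binding partners of C1q and other complement fragments had a median of 0.10 over 6 measured genes of 10. Of these, 3 lay within the probe set SD of 0 and 2 were at least 1.5-fold higher, against 4.19% of all measured genes. The anaphylatoxin receptor C3ar1 read 82.8 and 83.3, and Itgb2, the shared beta chain of the complement receptor integrins, 53.5 and 58.1. Cd93, an endothelial and myeloid surface protein once taken for a C1q receptor, read 806.5 and 857.8. Lrp1, an uptake receptor, read 72.9 and 114.0 (1.56-fold). Calr, the chaperone calreticulin that also binds C1q, had a log2 ratio of -0.39, with 0.01 and -0.18 on its other measured probe sets. C1qbp, a mitochondrial protein despite its name, had 0.66, with 0.20 on its other measured probe set.

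The C1q fold also occurs in proteins that are not complement. Among 13 such genes on the array, 7 were measured, with a median of -0.28. Of these, 3 were above 0, against 54.9% of all measured genes, and 4 were below. At 2-fold, 1 was lower, against 0.652% of all measured genes. At 1.5-fold, 2 were lower, against 2.95%, and 1 was higher, against 4.19%. Emilin1, an elastic fibre protein, read 148.6 and 67.7, a log2 ratio of -1.13. C1qtnf6, a secreted relative, read 157.6 and 91.2 (-0.79), and C1qtnf12 had -0.28. Of 3 other lysozyme-like genes on the array, all were at the floor on both arrays.

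On the growth factor side, Csf1 read 85.1 and 74.6, a log2 ratio of -0.19, with 0.24 on its other measured probe set. Il34 read 53.3 and 53.1. Csf2ra, a subunit of the receptor for GM-CSF, read 109.6 and 120.0, and Ptpn6, a phosphatase of blood cells, had a log2 ratio of -0.07. The list of ligands and signalling partners had a median of -0.01 over 7 measured genes of 14 on the array, with 3 above 0. Its largest ratio was that of Dapp1, an adaptor of B cell signalling, which read 53.8 and 92.6 (1.72-fold higher). The lipid phosphatase Inpp5d (SHIP1) read 56.8 and 34.5, at least 1.43-fold lower, and Cbl, a ubiquitin ligase, 45.1 and 39.3. The adaptor Grb2 had a log2 ratio of 0.18. The brightest gene of the list, Dap, is a death-associated protein and no known partner of Csf1r, with -0.34. The ratios of both ligands, like that of the receptor, lay within the probe set SD of 0.

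Other macrophage markers held higher, level and lower members. Of 23 on the array, 12 were measured and 7 of these were above 0, against 54.9% of all measured genes. At 1.5-fold, 3 were higher, against 4.19% of all measured genes, and 1 was lower, against 2.95%. The median log2 ratio of the 12 was 0.15, and it was -0.04 with a floor at the 60th percentile. Lgals3 (galectin-3) read 68.0 and 140.7 (2.07-fold), Apoe, the lipid carrier, 529.1 and 1009 (1.91-fold), and Mpeg1, a pore-forming protein of phagocytes, 55.8 and 104.9 (1.88-fold). Ms4a7 had a log2 ratio of 0.42, the lipopolysaccharide co-receptor Cd14 0.39 and Aif1 (IBA1) 0.21. Pltp, a lipid transfer protein, had 0.10. Folr2, a marker of resident macrophages, had -0.10, F13a1 (factor XIII) -0.04, Sirpa -0.19 and Pf4 -0.20. Lyve1, shared by resident macrophages and lymphatic endothelium, read 161.4 and 98.6 (-0.71). Cx3cr1 was above the floor in the knockout only, at 51.4, and Mertk in the wild type only, at 40.6. A further 9 were at the floor on both arrays, among them Cd163, Marco, Siglec1, Vsig4 and Trem2, named after their values were seen.

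**Figure D3:**
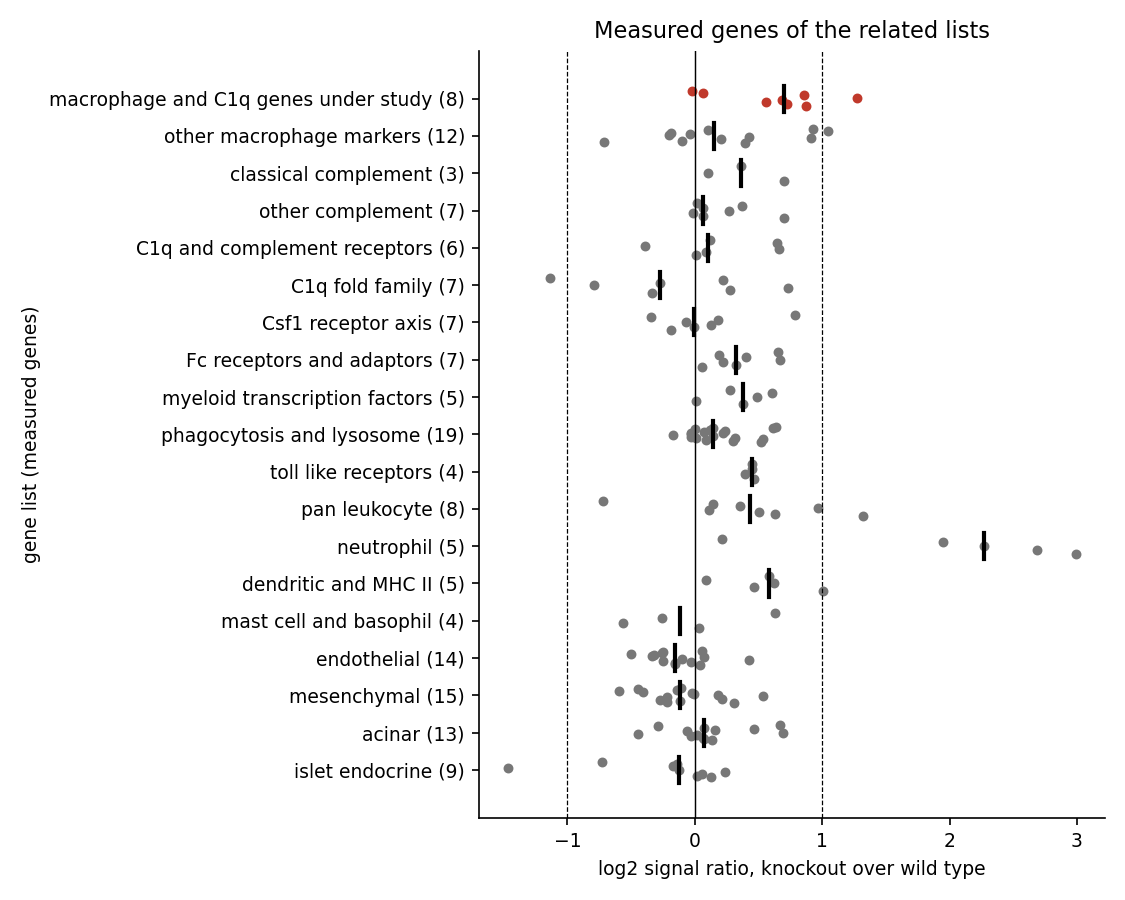
Log2 signal ratio of knockout over wild type for each measured gene (points) of the genes under study (red) and of 18 related lists (grey), with the number of measured genes in brackets, the median as a black bar and dashed lines at 2-fold. The genes under study have a median of 0.70 and the neutrophil list has the median furthest to the right, at 2.27.

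Most measured signalling and digestive genes of phagocytes were above 0, as were 54.9% of all measured genes. All 7 measured Fc receptor and adaptor genes were above 0, with a median of 0.32 and none at 2-fold. The adaptor Tyrobp (DAP12) read 100.2 and 159.5 (1.59-fold), the signalling enzyme Plcg2 87.1 and 137.0 (1.57-fold), the shared gamma chain Fcer1g had a log2 ratio of 0.22 and the receptor Fcgr3 0.32. The kinases Btk and Fgr had 0.40 and 0.19, and Fcgr4 was at least 1.41-fold higher. Fcgr2b, the inhibitory receptor, gave 0.06, and 0.88 on a dimmer probe set. Of 19 measured genes of engulfment, oxidase and lysosome, 15 were above 0 with a median of 0.14. Ctsl (cathepsin L) had 0.31 and Npc2, a lysosomal cholesterol carrier, 0.22. All 4 measured genes of the Toll-like receptor pathway were above 0, with a median of 0.45, and Myd88, their adaptor, read 115.7 and 157.6.

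Several transcription factors of the myeloid lineage were near the floor. Spi1, which encodes PU.1, read 25.3 in wild type and 44.7 in knockout islets, above the floor in the knockout only. Irf8 (17.0 and 41.7), Cebpa (21.3 and 45.1) and the liver X receptor Nr1h3 (34.2 and 44.6) showed the same pattern. Runx1 was above the floor in the wild type only (45.7 and 21.8). Among all 693 genes with a bound, 61.2% were above the floor in the knockout only. All 5 measured factors were above 0, against 54.9% of all measured genes, with a median of 0.38. Of these, Irf5 had 0.38, Cebpd 0.49, Id3 0.61, Klf4 0.28 and Cebpb 0.01, and the last 4 are also made by many other cell types. Inflammatory cytokine, chemokine and activation genes were mostly at the floor, with 19 of 31 at the floor on both arrays. Their 10 measured genes had a median of 0.16 and none was 2-fold apart. At 1.5-fold, 3 of the 10 were higher, against 4.19% of all measured genes, and 0 were lower, against 2.95%. A further 1 was above the floor in the knockout only and 1 in the wild type only. The brightest measured genes of that list were Cxcl12, a stromal chemokine (0.12), and Arg1, arginase (0.41). C-type lectins, galectins and scavenger receptors had a median of 0.03 over 8 measured genes, 4 above and 4 below 0. Of these, Lgals3 was at least 2-fold higher, as given above, and the brightest were Lgals1 at -0.25 and Scarb2 at -0.15.

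Most measured markers of neutrophils, of white blood cells in general and of dendritic cells were also higher in the knockout library. Of 13 lymphocyte markers 0 were measured, 4 were above the floor in the knockout only and 9 were at the floor on both arrays. Among all 693 genes with a bound, 61.2% were above the floor in the knockout only. Of 15 neutrophil markers on the array, 5 were measured. All 5 were above 0, against 54.9% of all measured genes, and 4 were at least 2-fold higher, against 0.516%. Their median log2 ratio was 2.27. That median was 0.73 with a floor at the 25th percentile and 1.09 with a pseudocount of 16 in place of the floor, where more dim markers were counted. A further 4 were above the floor in the knockout only, 1 in the wild type only, and 5 were at the floor on both. The list's summed signal came to 623.4 for wild type and 2758 for knockout, a ratio of 4.42, against 1.65 for the genes under study. No marker had a signal of exactly 0. S100a8 and S100a9, the calprotectin subunits, read 98.9 and 788.8, and 120.8 and 778.3. The granule proteins Ngp and Lcn2 had log2 ratios of 2.27 and 1.95. Camp (cathelicidin) was at least 3.93-fold higher and Ltf (lactoferrin) at least 2.20-fold. Of 11 markers of white blood cells in general, 8 were measured and 7 of these were above 0, against 54.9% of all measured genes. A further 2 were above the floor in the knockout only and 1 was at the floor on both arrays. The median of the 8 was 0.43, and the summed signal of the list was 592.6 and 877.4. Cd52 read 59.6 and 148.7 (2.50-fold) and Arhgdib had a log2 ratio of 0.97, while Selplg, named after its value was seen, had -0.72. Of 15 dendritic cell and MHC class II markers, 5 were measured, all above 0, against 54.9% of all measured genes. Their median was 0.58 (0.29 and 0.12 under the same alternatives), and the summed signal of the list was 686.2 and 919.2. A further 1 was above the floor in the knockout only and 2 in the wild type only, Flt3 (46.1 and 21.3) and H2-DMa (39.9 and 35.9), both named after their values were seen, and 7 were at the floor on both arrays. H2-Aa read 76.5 and 154.0, and Cd74, the invariant chain, 121.1 and 186.0. The part of neutrophils or other white blood cells in the C1q and lysozyme signals was not tested.

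Markers of mast cells and of other tissues had medians closer to 0. The summed signal was 5012 and 4612 for 14 endothelial markers (median log2 ratio -0.16), 14811 and 13819 for 15 mesenchymal markers (-0.12), 44487 and 46673 for 13 acinar markers (0.07) and 517.5 and 514.4 for 8 mast cell markers (-0.11, 4 measured). Esam and Plvap, endothelial genes, had log2 ratios of -0.10 and 0.08, and Vim and Sparc, mesenchymal genes, -0.01 and -0.02. The mast cell genes Cpa3 and Cma1 had 0.03 and -0.26. Of 5 red blood cell markers, only Tfrc and Alas2 were measured, both at -0.19. Genes listed for fat, lymph node and liver had a median of 0.13 over 9 measured ones, with Fgb (fibrinogen) at 1.35, Lpl at -0.02 and Ttr at 0.02. Ttr (8132.9 and 8242.2) was brighter than the endocrine marker Chga (7032.5 and 6229.1), so Ttr is no measure of carry-over of those tissues. Carry-over was not tested with the other genes of the list, Fgb included. The acinar genes Cela3b and Ctrb1 had -0.03 and 0.02.

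The ratios of single genes were similar under all 9 processing alternatives in which they were measured, except that of Lyz1. Part of this was fixed in advance. Scaling left the knockout array unchanged, so the deposited scale repeats the reported one, and median centring lowers every ratio by 0.03. A changed floor keeps the ratio of a gene that stays measured. The choice of probe set keeps that of a measured gene with 1 probe set. C1qa lay between 0.83 and 0.87, C1qb between 0.65 and 0.72, Lyz2 between 0.80 and 0.86, Adgre1 between 0.55 and 0.68 and Cd68 between 0.44 and 0.56. Csf1r stayed between -0.01 and 0.07 and Mrc1 between -0.12 and -0.01. The median of the Lyz1 probe sets gave 0.80 in place of 1.27, which ended its 2-fold call, and without the _x_at and _s_at types Lyz1 was at the floor.

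**Figure D4:**
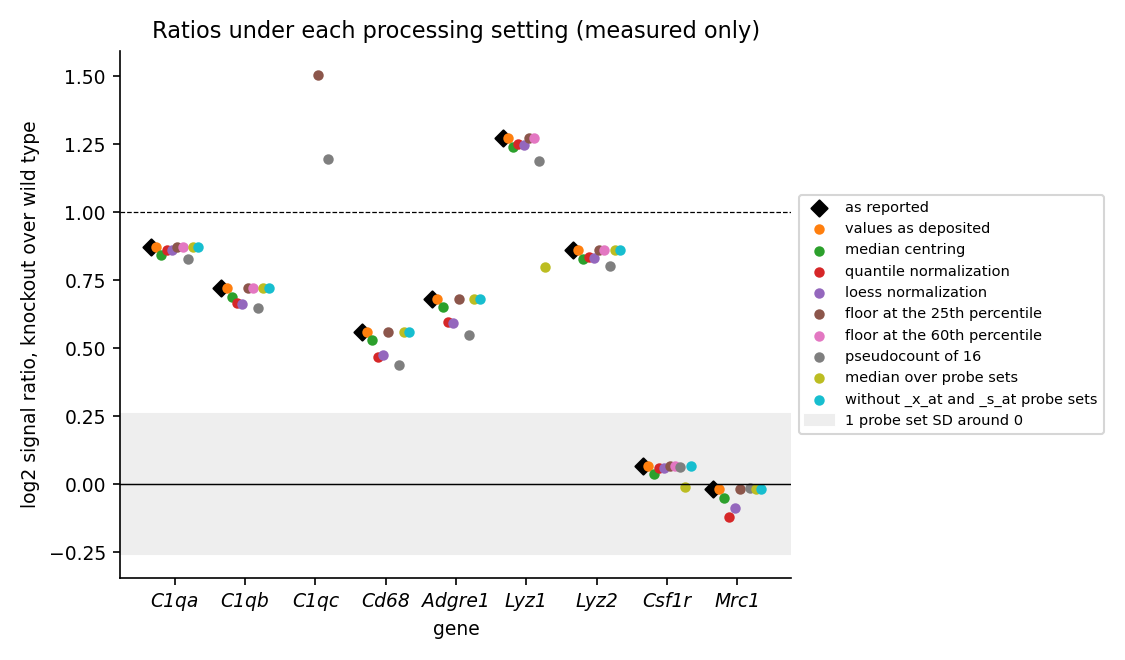
Log2 signal ratio of knockout over wild type of each gene as reported (black diamonds) and under 9 processing alternatives (coloured points), with the probe set SD of 0.26 around 0 as a grey band and 2-fold as a dashed line. Only settings in which a gene was measured are drawn, so C1qc has 2 points, and Csf1r and Mrc1 lie inside the band throughout.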

How the data were processed

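Signals were taken from 1 deposited table with 1 column for each array (wild type and PERK knockout, 2 arrays in all). Its values are linear signal intensity units per probe set as deposited, and GCOS 1.02 is the only tool that the submitters' processing notes name. Background correction, summary method and genome build were not given in the sources used here.

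For scaling, the knockout array was brought to the wild-type 2% trimmed mean, which left it unchanged. Signals under the 40th percentile (39.8) were floored and expressed as a log2 ratio, knockout over wild type. Of 22690 probe sets, 20380 had 1 gene symbol in the platform annotation, 691 several, 1555 none and 64 were controls. Of the first, 20351 matched RefSeq genes and 0 symbols changed. The brightest probe set stood for a gene: 8133 were measured, 3567 were at the floor and 693 had a bound. All 9 genes and Eif2ak3 were named, any gene above the floor on 6 closely related lists could be named, and elsewhere up to 4 genes 2-fold apart in each direction, up to 2 bounds of that size and the brightest 2 were named. Others are said to be named after their values were seen. With 2 arrays no gene was named for a like pattern. The members and 24 lists were chosen with earlier results of these data known. The calculations used Python 3.11.15, pandas 2.3.3, scipy 1.17.1, statsmodels 0.14.6 and Biopython 1.88. They were tested on simulated data with changes larger than any measured ratio of the 9 genes and with no variation between animals. That test does not bear on calls of the size made here. Protein sequences were not used here.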

Additional observations from a re-analysis of the deposited data

How the results depend on the processing

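Over 9 alternatives (deposited scale, median centring, quantile, loess, a 25th and a 60th percentile floor, a pseudocount of 16, the median over probe sets, and no _x_at or _s_at probe sets), the median log2 ratio of the measured genes under study lay between 0.63 and 0.86. The number above 0 was 5 to 8, of 5 to 9 measured, and the number at least 1.5-fold higher, a limit added after seeing the data, was 4 to 6. The number at least 2-fold higher was 1 as reported, 2 with the 25th percentile floor and with the pseudocount, where C1qc was measured (1.51 and 1.20), and 0 with the median over probe sets and without _x_at and _s_at. Over all genes, 42 were at least 2-fold higher and 53 lower. The count of higher genes was 27 with quantile and 26 with loess normalisation, 81 with the 25th and 13 with the 60th percentile floor, and 88 with the pseudocount. The count of lower genes was 80 and 28 with those floors. Of 265 values of single genes and lists, 258 moved by no more than the probe set SD and 7 moved by more. Of values past 2-fold as reported, 0 changed sign, but only Lyz1 and the median of the neutrophil list were that large. Part of that agreement was fixed in advance, since some of the alternatives cannot move a measured ratio, as given above. Medians of lists that changed sign under some setting were those of lectins, acinar, other macrophage, Csf1 axis, fat, inflammatory and red blood cell genes, from values between -0.19 and 0.16. No paired analysis was possible because there is 1 array per genotype. Signals near the floor limit Mrc1, Cd68, Adgre1 and C1qc.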

Other observations

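No lymphocyte marker was measured on both arrays, and the 4 of 13 that exceeded the floor did so in the knockout library only. All 4, named after their values were seen, are genes of B cells. Cd79a and Cd79b, the signalling chains of the B cell receptor, read 37.7 and 20.6 in the wild type and 59.9 and 49.0 in the knockout. Ms4a1 (CD20) read 16.6 and 66.2, and the kinase Blk 18.6 and 53.0. Of all 693 genes with a bound, 61.2% were above the floor in the knockout only. The 9 other lymphocyte markers on the array were at the floor on both arrays.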
